A study of Mus musculus with 8 samples.

Results

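The 8 genes described here (Dnm1l, Fis1, Mff, Mfn1, Mfn2, Opa1, Oma1 and Yme1l1) were found by symbol among 23846 entries of the gene expression table, 1 entry each. The libraries came from whole hearts of mouse embryos at embryonic day 11.5, 4 from cKO and 4 from littermate control hearts. The cKO hearts were Ogt f/y with TnT-Cre, a Cre driven by the cardiac troponin T promoter, which deletes Ogt (the gene of the only O-GlcNAc transferase) in cardiomyocytes and leaves it intact in endothelial, epicardial and blood cells of the same heart. The labels call the other group control without giving its alleles. In the paper's cross of Ogt f/f females with TnT-Cre males, male littermates without Cre were Ogt f/y. They give the strain as B6, whereas the methods give 129/SvJ mixed with C57BL/6J. All values are FPKM, fragments scaled to transcript length and to library size. Differences are log2(FPKM + 0.5) in cKO minus control hearts. Calls rest on limma over the 12629 entries whose mean reached 1 FPKM, and a gene counts as called where its p, after Benjamini-Hochberg adjustment over these entries, is under 0.05. All 8 genes passed that filter.

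Mitochondria continually divide and join, and a small set of proteins carries out these steps. The dynamin-related GTPase DRP1, encoded by Dnm1l, is recruited from the cytosol to adaptors such as FIS1 and MFF on the outer membrane and constricts the organelle. The mitofusins MFN1 and MFN2 join outer membranes, OPA1 joins inner membranes and holds the cristae in shape, and the proteases OMA1 and YME1L1 cut OPA1 into its long and short forms. In the heart, where mitochondria fill much of the cardiomyocyte, loss of either process is known to impair development or function.

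Ogt itself had 20.1, 21.6, 24.7 and 21.5 FPKM in cKO libraries 1 to 4, against 41.6, 43.3, 37.5 and 46.2 FPKM in control libraries 1 to 4, and fell by 0.92 on the log2 scale (adjusted p = 0.000149 from limma). Nothing in the labels tells if hearts were pooled, so p-values measure only the spread between these libraries, which may be technical. The FPKM of all entries summed to 562190 to 597408 in cKO libraries and to 538581 to 637528 in control libraries, and depth relative to control library 1, estimated from the most frequent FPKM ratio at short loci, lay between 1.12 and 1.25 in cKO libraries and between 1.00 and 1.22 in control libraries. Xist was at most 0.0741 FPKM and the Y-linked Eif2s3y at least 22.4 FPKM in every library, as in male hearts. Of 10 cardiomyocyte markers none was called, and their summed level was 19875 to 22417 FPKM in cKO and 18759 to 24157 FPKM in control libraries. Myl2, named after its values were seen, supplies more to this sum than any other marker (mean 11133 FPKM in cKO and 10760 FPKM in control libraries). Of 8 endothelial markers 5 were lower (summed level 239 to 256 FPKM in cKO and 266 to 301 FPKM in control libraries) and of 7 epicardial markers 4 were higher (213 to 249 FPKM in cKO and 169 to 185 FPKM in control libraries). None of 6 cushion mesenchyme, 10 erythroid and 4 tested macrophage markers was called, although the summed erythroid level ranged widely, from 31415 to 46939 FPKM in cKO and from 15489 to 59237 FPKM in control libraries. These marker counts stand beside 30.7% of all entries tested that were called (14.9% lower and 15.9% higher). No marker of these lists was at 0 in all libraries. The part of these markers in the results below was not tested. In whole hearts, fewer cells of a type and less RNA per cell cannot be told apart.

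Among the 8 genes, the 3 fission genes Dnm1l, Fis1 and Mff were all lower in cKO hearts. The 3 fusion genes divided: Opa1 and Mfn2 were higher and Mfn1 was lower. Of the proteases, Oma1 was higher and Yme1l1 was not called. In all, 4 were called lower, 3 higher and 1 not, where 30.7% of all entries tested were called (14.9% lower and 15.9% higher). In the 7 called genes the 4 cKO libraries did not overlap with the 4 control libraries, which held for 32.8% of all entries tested.

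**Figure D1:**
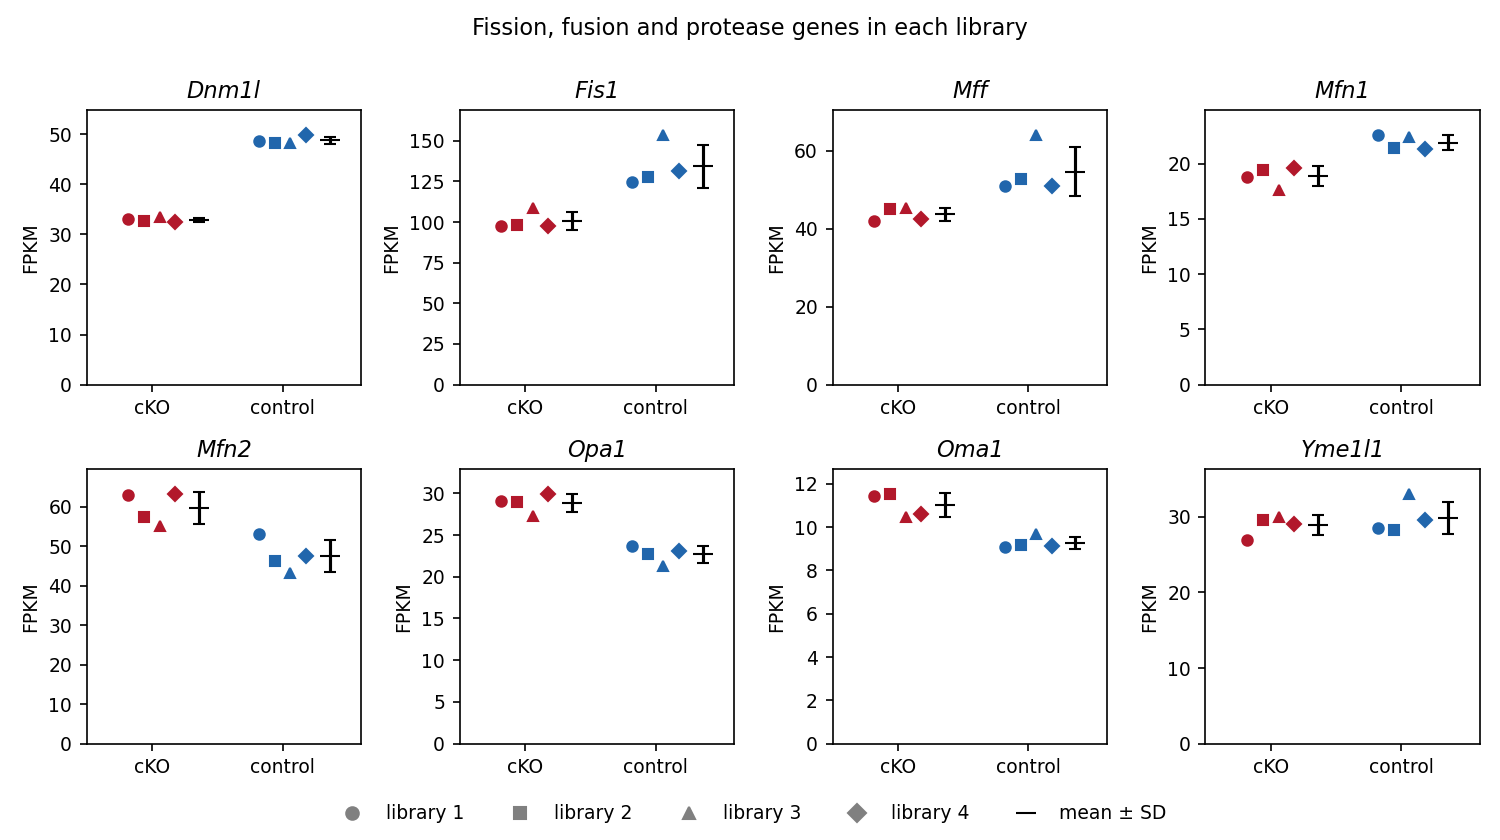
FPKM of the 8 genes in each library (vertical axes in FPKM from 0, the 4 cKO libraries left of the 4 control libraries, symbols marking the library number, the bar at the right of each group its mean ± SD). Dnm1l averages 32.9 FPKM in cKO and 48.8 FPKM in control libraries with little spread, and Yme1l1 is the only gene whose groups overlap.

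The upstream sequences of Dnm1l and Fis1, which had the largest falls, and of Opa1, which had the largest rise, are shown because these genes moved most in either direction. The sequences are from RefSeq (GRCm38.p6), 250 bases directly before the start site that equals the start of the deposited entry, which was found for 7 of the 8 genes. They are printed along the gene's own strand. Capitals mark CCAAT (or ATTGG, its reverse complement), CCGGAAG (the core bound by ETS factors) and GCGCATGC on either strand. The last is a core of the site of the respiratory regulator NRF1.
Dnm1l (chr16:16359032-16359281, minus strand): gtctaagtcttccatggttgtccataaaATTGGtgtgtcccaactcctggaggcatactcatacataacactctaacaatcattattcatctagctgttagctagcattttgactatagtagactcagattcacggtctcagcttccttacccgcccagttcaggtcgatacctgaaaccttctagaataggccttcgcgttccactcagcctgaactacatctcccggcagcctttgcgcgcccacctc
Fis1 (chr5:136953025-136953274, plus strand): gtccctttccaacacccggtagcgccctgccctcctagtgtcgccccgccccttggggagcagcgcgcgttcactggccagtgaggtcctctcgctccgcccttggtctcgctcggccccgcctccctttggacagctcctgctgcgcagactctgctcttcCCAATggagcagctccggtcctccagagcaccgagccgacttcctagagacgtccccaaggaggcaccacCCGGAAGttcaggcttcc
Opa1 (chr16:29579084-29579333, plus strand): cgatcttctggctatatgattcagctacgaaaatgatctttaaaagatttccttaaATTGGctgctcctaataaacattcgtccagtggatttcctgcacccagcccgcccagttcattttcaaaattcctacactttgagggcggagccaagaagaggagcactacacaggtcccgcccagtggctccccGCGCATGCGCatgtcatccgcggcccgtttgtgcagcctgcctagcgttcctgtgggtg
The windows hold 47.6% G and C in Dnm1l, 66.8% in Fis1 and 52.0% in Opa1. All motifs were searched on both strands. GCGCATGC stands 59 bases before the Opa1 start, overlapping its own match on the other strand, and in none of the other 6 windows searched, against 2.26% of 32851 promoter windows of the same length. CCGGAAG was in 3 of the 7 windows (Fis1, Mfn1 and Yme1l1), against 6.91% of all, and CCAAT in 5 of 7, against 33.8% of all. AAGATGGC, TCAAGGTCA and CACGTG, letters of the YY1, ERR and E-box sites, were in none of the 7, against 1.56%, 0.387% and 6.02% of all. The 32851 windows were not limited to genes expressed in these hearts or to starts that equal those of deposited entries, and no enrichment was tested. These genes differ in direction, and the matches describe the letters only.

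Dnm1l (chromosome 16, 16312228 to 16359031 of mm10, 19 exons in its longest coding transcript) gave the sharpest difference of the 8. It had 33.1, 32.6, 33.4 and 32.4 FPKM in cKO libraries 1 to 4, against 48.7, 48.3, 48.2 and 49.8 FPKM in control libraries 1 to 4. The groups are separated by 14.8 FPKM, against an SD of 0.465 FPKM in cKO and 0.734 FPKM in control hearts. Dnm1l fell by 0.56 (log2 difference -0.56 with a standard error of 0.04, 95% interval -0.64 to -0.48, adjusted p = 5.69e-05 from limma), and its mean decreased by 32.5% relative to control hearts. By p-value it ranked 27 among the 12629 entries tested, and 94.7% of them had a smaller difference. An antisense locus overlaps Dnm1l in GENCODE, loci on the opposite strand overlap Mff and Mfn2, and a further locus lies within an intron of Mff on the same strand. The sources used here do not say if strand was used in counting, so reads of the opposite-strand partners cannot be told apart, and strand would not separate the intronic locus from Mff.

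Fis1 encodes a small protein anchored in the outer membrane by its tail. Its gene (chromosome 5, 136953275 to 136966234) has 5 exons. Fis1 was the most abundant of the 8, with 97.7, 98.5, 108.6 and 97.5 FPKM in cKO libraries 1 to 4, against 125, 128, 153 and 132 FPKM in control libraries 1 to 4. The highest library of each group was library 3, and the groups remained 15.9 FPKM apart. Fis1 fell by 0.41 in log2 units (its standard error was 0.07, adjusted p = 0.00405 from limma), and by 0.35 without control library 3 (adjusted p = 0.00133 from limma).

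Mff encodes the outer membrane adaptor that recruits most DRP1 in mammalian cells. The gene (chromosome 1, 82724918 to 82752389) has 11 exons in its longest coding transcript. It had 42.1, 45.1, 45.2 and 42.4 FPKM in cKO libraries 1 to 4, against 50.9, 52.6, 64.0 and 50.9 FPKM in control libraries 1 to 4. Control library 3 stood well above the other control libraries, which were close to each other. Mff fell by 0.31 (standard error 0.08, adjusted p = 0.0161 from limma), and by 0.23 without control library 3, where its adjusted p was 0.00306. Among all such omissions of 1 library its adjusted p was highest without cKO library 4, at 0.0496.

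The mitofusin genes moved in opposite directions. Mfn1 (chromosome 3, 32529482 to 32579225, 18 exons) had 18.8, 19.4, 17.6 and 19.6 FPKM in cKO libraries 1 to 4, against 22.6, 21.4, 22.4 and 21.3 FPKM in control libraries 1 to 4. The highest cKO library was 1.65 FPKM below the lowest control library. Mfn1 fell by 0.21 (standard error 0.05, adjusted p = 0.0105 from limma), the smallest change among the 7 called genes. Mfn2, whose product also tethers mitochondria to the endoplasmic reticulum (chromosome 4, 147873595 to 147904819, 20 exons), had 62.9, 57.4, 55.2 and 63.1 FPKM in cKO libraries 1 to 4, against 53.0, 46.2, 43.1 and 47.5 FPKM in control libraries 1 to 4. The lowest cKO library was 2.13 FPKM above the highest control library, control library 1. Mfn2 rose by 0.33 (standard error 0.07, adjusted p = 0.0105 from limma). Mfn2 was the more abundant of the pair in every library. The Mfn1 to Mfn2 ratio of FPKM was 0.299, 0.338, 0.319 and 0.311 in cKO libraries 1 to 4, against 0.425, 0.463, 0.519 and 0.448 in control libraries 1 to 4. Its log2 difference was -0.55. As Mfn1 was lower and Mfn2 higher without overlap, the ratio could not overlap between the groups and is no separate result.

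Opa1 (chromosome 16, 29579334 to 29654602, 29 exons) encodes the inner membrane GTPase. It had 29.1, 28.9, 27.3 and 29.9 FPKM in cKO libraries 1 to 4, against 23.7, 22.7, 21.3 and 23.0 FPKM in control libraries 1 to 4. Library 3 was the lowest of each group, and the groups were 3.61 FPKM apart. Opa1 rose by 0.34 (standard error 0.05, 95% interval 0.23 to 0.45, adjusted p = 0.00126 from limma), a mean 26.9% above that of control hearts. These values are given per gene and do not separate its splice forms, and the long and short OPA1 proteins are made after translation.

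**Figure D2:**
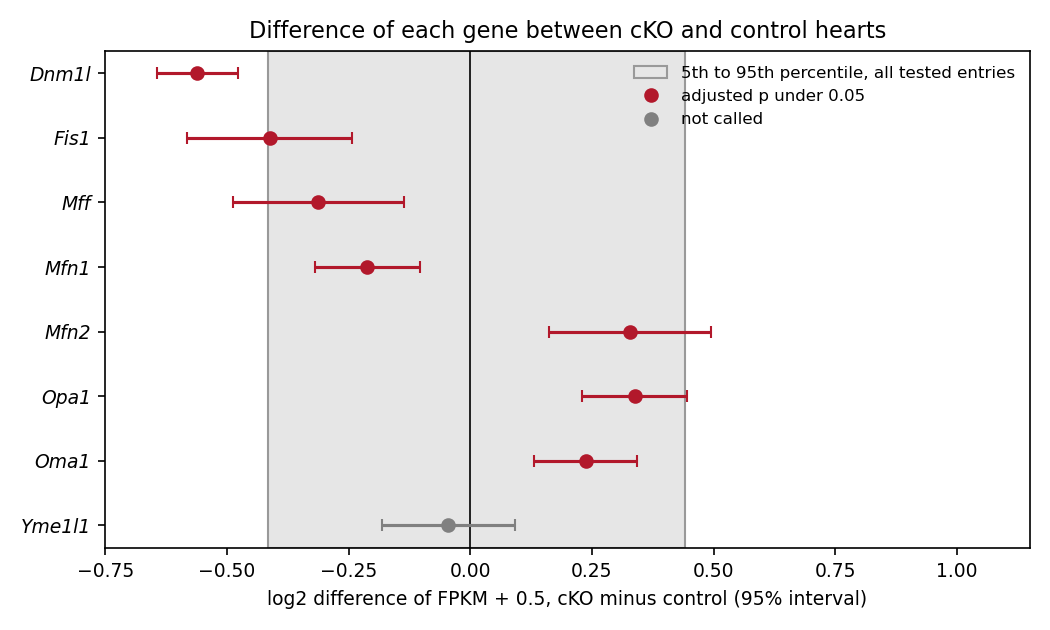
Log2 difference of each gene (horizontal axis, cKO minus control on log2(FPKM + 0.5)) with its 95% interval from limma, called genes in red and the uncalled gene in grey. The shaded band spans the 5th to 95th percentile of all tested entries (-0.42 to 0.44), and Dnm1l lies outside it.

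The proteases that cut OPA1 differed from each other. Oma1, whose product is activated when the inner membrane loses its potential (chromosome 4, 103313846 to 103366428, 9 exons), was the least abundant of the 8 genes. It had 11.4, 11.5, 10.5 and 10.6 FPKM in cKO libraries 1 to 4, against 9.08, 9.17, 9.66 and 9.11 FPKM in control libraries 1 to 4. The groups were 0.809 FPKM apart. Oma1 rose by 0.24 (standard error 0.05, adjusted p = 0.00592 from limma). Yme1l1, the ATP-dependent protease of the inner membrane (chromosome 2, 23156505 to 23199260, 19 exons), had 27.0, 29.5, 29.9 and 29.0 FPKM in cKO libraries 1 to 4, against 28.5, 28.2, 33.0 and 29.6 FPKM in control libraries 1 to 4. The groups overlap. The log2 difference of Yme1l1 was -0.05 (95% interval -0.18 to 0.09, adjusted p = 0.603 from limma). No difference was called, and a small rise or fall within that interval is not excluded. The Oma1 to Yme1l1 ratio of FPKM was 0.425, 0.390, 0.350 and 0.365 in cKO libraries 1 to 4, against 0.318, 0.325, 0.293 and 0.308 in control libraries 1 to 4, again without overlap.

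Set against each other within a library, the summed FPKM of Dnm1l, Fis1 and Mff was 1.56, 1.67, 1.87 and 1.53 times that of Mfn1, Mfn2 and Opa1 in cKO libraries 1 to 4, against 2.26, 2.53, 3.06 and 2.53 times in control libraries 1 to 4. The sums themselves were 177 ± 6.95 FPKM in cKO and 238 ± 18.9 FPKM in control hearts for the fission genes, and 107 ± 5.68 FPKM in cKO and 92.1 ± 5.23 FPKM in control hearts for the fusion genes (SD, n = 4 each). Fis1 supplies more than any other gene to the first sum and Mfn2 to the second. The Dnm1l to Mff ratio averaged 0.754 ± 0.0284 in cKO and 0.902 ± 0.102 in control hearts (SD, n = 4 each), but control library 3, at 0.754, lay below cKO libraries 1 and 4, so the groups overlapped. These sums and ratios are descriptions without a test.

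**Figure D3:**
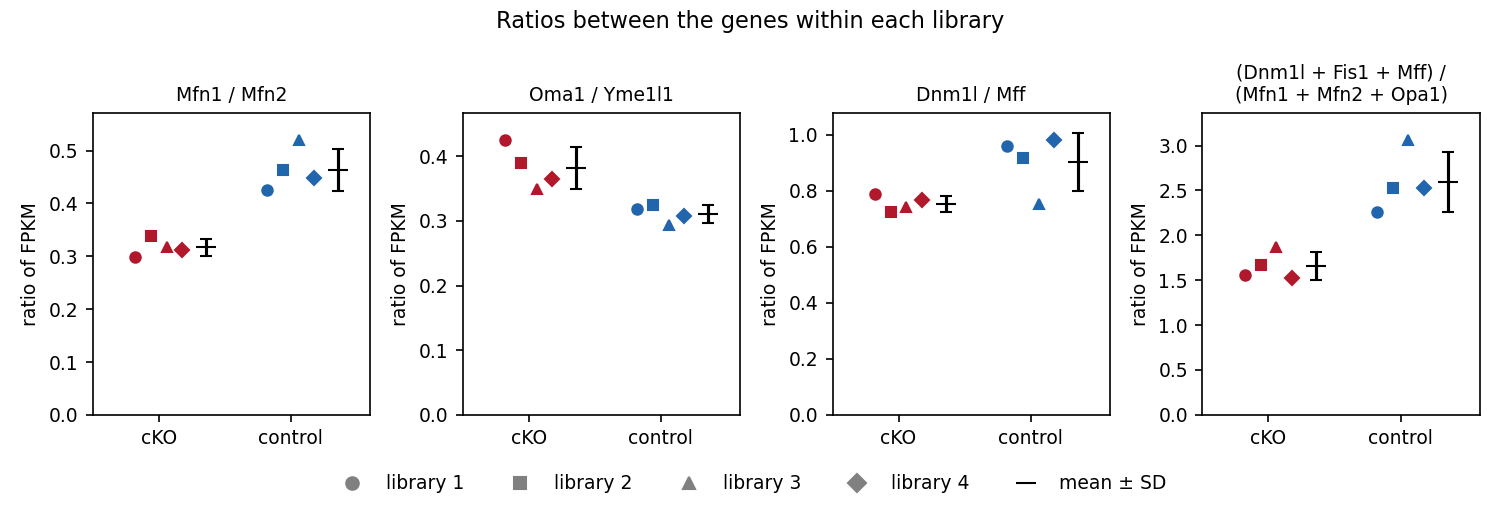
Ratios of FPKM within each library (vertical axes from 0, cKO left of control, symbols marking the library number, bars the mean ± SD). The Mfn1 to Mfn2 ratio is at most 0.338 in the cKO libraries and at least 0.425 in the control libraries, and only the Dnm1l to Mff ratio overlaps between the groups.

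Deviations from the group mean were shared between some of the genes. Control library 3 was 14.2%, 17.2% and 10.5% above the control mean for Fis1, Mff and Yme1l1, and 9.11% and 5.95% below it for Mfn2 and Opa1. In cKO library 3 Fis1, Mff and Yme1l1 were also above the cKO mean (by 8.00%, 3.45% and 3.75%), and Mfn2 and Opa1 were below it. Dnm1l stayed within 2.15% of its group mean in every library. The longest coding transcript has 948 bases for Fis1, 2087 for Mff and 1915 for Oma1. It has 3966 bases or more for the other 5 genes, with 4707 for Yme1l1 and 6230 for Opa1. Oma1 was 4.36% above the control mean in control library 3 and 4.87% below the cKO mean in cKO library 3. The part of length in the deviations of these genes was not tested. Over all tested entries with a GENCODE length, the median log2 deviation from the group mean in control library 3 was 0.19 among transcripts of 216 to 2003 bases and -0.10 among those of 4695 bases or more. In the 4 cKO libraries it lay between -0.03 and 0.02 in either class. Between the groups the median log2 difference was 0.01 in the shorter and 0.04 in the longer class. With the length trend removed from each library, a setting added after seeing the data, the same 7 genes were called, and the log2 differences were -0.57 for Dnm1l, -0.44 for Fis1, -0.31 for Mff, -0.23 for Mfn1, 0.31 for Mfn2, 0.31 for Opa1 and 0.24 for Oma1. With both libraries 3 left out, also added later, 7 genes were called, 4 lower and 3 higher. Both settings called more entries in all than the main fit, which called 3879 of 12629. The count was 4703 of 11244 entries with the length trend removed and 4584 entries with both libraries 3 left out.

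**Figure D4:**
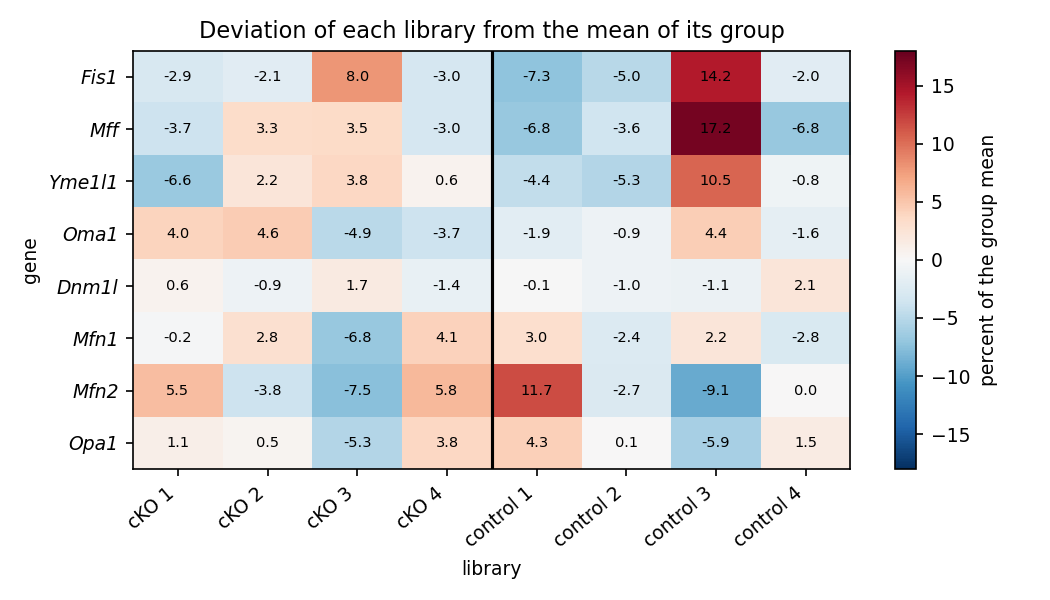
Deviation of each library from the mean of its own group, in percent of that mean (color scale and printed values), for the 8 genes (rows) in the cKO libraries left of the line and the control libraries right of it. Control library 3 carries the largest deviations, 17.2% for Mff and 14.2% for Fis1, followed by 11.7% for Mfn2 in control library 1, and Dnm1l varies least.

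The library names given in the descriptions start with OGF355 or OGF373 after the group, a prefix whose meaning is not stated. The FPKM columns of all 8 libraries are headed OGF373, also those of the 3 libraries named OGF355, so the labels do not settle whether the prefix divides the libraries at all. Among the OGF355 libraries (1 cKO and 2 control) the log2 differences were -0.54 for Dnm1l, -0.37 for Fis1, -0.30 for Mff, -0.22 for Mfn1, 0.34 for Mfn2, 0.32 for Opa1 and 0.31 for Oma1. Among the OGF373 libraries (3 cKO and 2 control) they were -0.57, -0.48, -0.36, -0.21, 0.37, 0.36 and 0.20 for the same genes in the same order. The direction was the same within each prefix for all 7. Their groups did not overlap, so any split holding both groups must keep the direction, and this adds nothing of its own. With the 5 OGF373 libraries alone only Dnm1l, Fis1 and Opa1 were called (limma adjusted p = 0.0113, 0.0382 and 0.0336).

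Other proteins act in the same steps or in other mitochondrial processes. The counts of each list below stand beside 30.7% of all entries tested that were called (15.9% higher and 14.9% lower). Of 10 further tested genes of the fission machinery, 1 was lower and 2 were higher. Mief2, which encodes the adaptor MiD49, fell by 0.52 (standard error 0.06, adjusted p = 0.00041 from limma), with 5.35, 4.63, 5.01 and 4.91 FPKM in cKO libraries 1 to 4, against 7.56, 6.96, 7.82 and 7.14 FPKM in control libraries 1 to 4. Its paralog Mief1 (MiD51) averaged 8.45 ± 0.237 FPKM in cKO and 8.35 ± 0.334 FPKM in control hearts (SD, n = 4 each; adjusted p = 0.799 from limma). The higher genes were Inf2, a formin that builds actin where the endoplasmic reticulum meets mitochondria (log2 difference 0.44), and Mtfp1, an inner membrane fission protein (0.18). Neither was called with no filter on low values, with the replicate block or without cKO library 2, 3 or 4. Mief1, Inf2 and Mtfp1 were chosen after their values were seen.

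Of 6 further tested genes in a list of fusion machinery and helpers, not all of them part of the machinery, Miga1 and Miga2 were lower. The others were not called. Miga1 and Miga2 encode the mitoguardins, outer membrane proteins that promote fusion. Miga2 averaged 10.4 ± 0.540 FPKM in cKO and 13.8 ± 0.192 FPKM in control hearts (SD, n = 4 each), a log2 difference of -0.39 (adjusted p = 0.000504 from limma), and Miga1 averaged 6.50 ± 0.312 FPKM in cKO and 8.56 ± 0.219 FPKM in control hearts, a log2 difference of -0.37 (adjusted p = 0.000641 from limma). Fusion genes thus stood on either side, with Mfn1, Miga1 and Miga2 lower and Mfn2 and Opa1 higher.

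The largest rises in these lists were among the proteases. Of 12 further tested genes, 4 were higher and 3 were lower. Lonp1, the ATP-dependent protease of the matrix, averaged 74.9 ± 2.73 FPKM in cKO and 44.7 ± 1.39 FPKM in control hearts (SD, n = 4 each), a log2 difference of 0.74 (standard error 0.05, adjusted p = 3.94e-05 from limma). Htra2, a serine protease of the intermembrane space, averaged 45.7 ± 1.94 FPKM in cKO and 26.3 ± 1.80 FPKM in control hearts, a log2 difference of 0.79 (standard error 0.06, adjusted p = 8.09e-05 from limma). Afg3l2, a subunit of the matrix-facing AAA protease, fell by 0.21 (adjusted p = 0.0056 from limma).

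Of 18 tested kinases, phosphatases, ligases and scaffolds that act on DRP1, MFF or the mitofusins, 2 were higher and 2 were lower. Akap1, which anchors protein kinase A on the outer membrane, where this kinase phosphorylates DRP1, averaged 33.7 ± 2.22 FPKM in cKO and 24.3 ± 1.81 FPKM in control hearts (SD, n = 4 each; log2 difference 0.46, adjusted p = 0.00145 from limma). The DRP1 kinase genes Cdk1 and Cdk5 differed in direction (log2 differences 0.32 and -0.33, adjusted p = 0.00934 and 0.00591 from limma). March5, a ubiquitin ligase of the outer membrane, had been turned into a date in the table, was found by its position and named after its values were seen, and was not called.

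Among 11 tested genes of the MICOS complex and its partners, which form the cristae junctions, 1 was higher and 3 were lower. Dnajc11 rose by 0.54 and Samm50, the outer membrane assembly protein, fell by 0.50 (adjusted p = 0.000271 and 0.000614 from limma). Micos13 fell by 0.29 (adjusted p = 0.0352 from limma), a call lost when any single cKO library or control library 4 was left out, with no filter on low values, with the replicate block and with the OGF373 libraries only. Of 7 tested transport genes 2 were lower, the kinesin light chain Klc1 and Armcx3 (log2 difference -0.24 and -0.23, adjusted p = 0.00442 and 0.00965 from limma). None was higher, but under 12 of 22 other settings 1 or more transport genes were called higher.

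Of 10 tested mitophagy genes 4 were lower and 0 were higher (14.9% and 15.9% of all entries tested), and the median log2 difference was -0.27, against 0.02 over all entries tested. With no filter on low values 3 were lower and 2 were higher. Bnip3, a receptor for mitophagy that is induced by hypoxia, averaged 79.4 ± 16.7 FPKM in cKO and 133 ± 14.3 FPKM in control hearts (SD, n = 4 each; log2 difference -0.76, standard error 0.14, adjusted p = 0.00513 from limma). Nipsnap1 and Fkbp8 fell by 0.50 and 0.34 (adjusted p = 0.000434 and 0.00226 from limma). The fourth was Fundc1 (log2 difference -0.33, adjusted p = 0.0439 from limma), named after its values were seen, and its groups overlapped.

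Of 17 tested genes of mitochondrial biogenesis and DNA maintenance, 2 were higher and 3 were lower. Ppargc1b, a coactivator of mitochondrial genes, averaged 7.25 ± 0.792 FPKM in cKO and 4.25 ± 0.590 FPKM in control hearts (SD, n = 4 each; log2 difference 0.71, adjusted p = 0.00163 from limma). Polg, the mitochondrial DNA polymerase, rose by 0.30 and Mterf3, a repressor of mitochondrial transcription, fell by 0.33 (adjusted p = 0.00398 and 0.00342 from limma). Of 13 tested genes that track mitochondrial content in general, 3 were higher and 4 were lower, among them the import subunits Tomm22 (0.42) and Tomm40 (-0.33) and the citrate synthase gene Cs (-0.32), with adjusted p = 0.00372, 0.0098 and 0.006 from limma. Over these 9 lists, 14 of 104 distinct genes other than the 8 were higher and 24 were lower, 36.5% in all, against 30.7% of all entries tested (15.9% higher and 14.9% lower). Their median log2 difference was 0.01, against 0.02 over all entries.

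**Figure D5:**
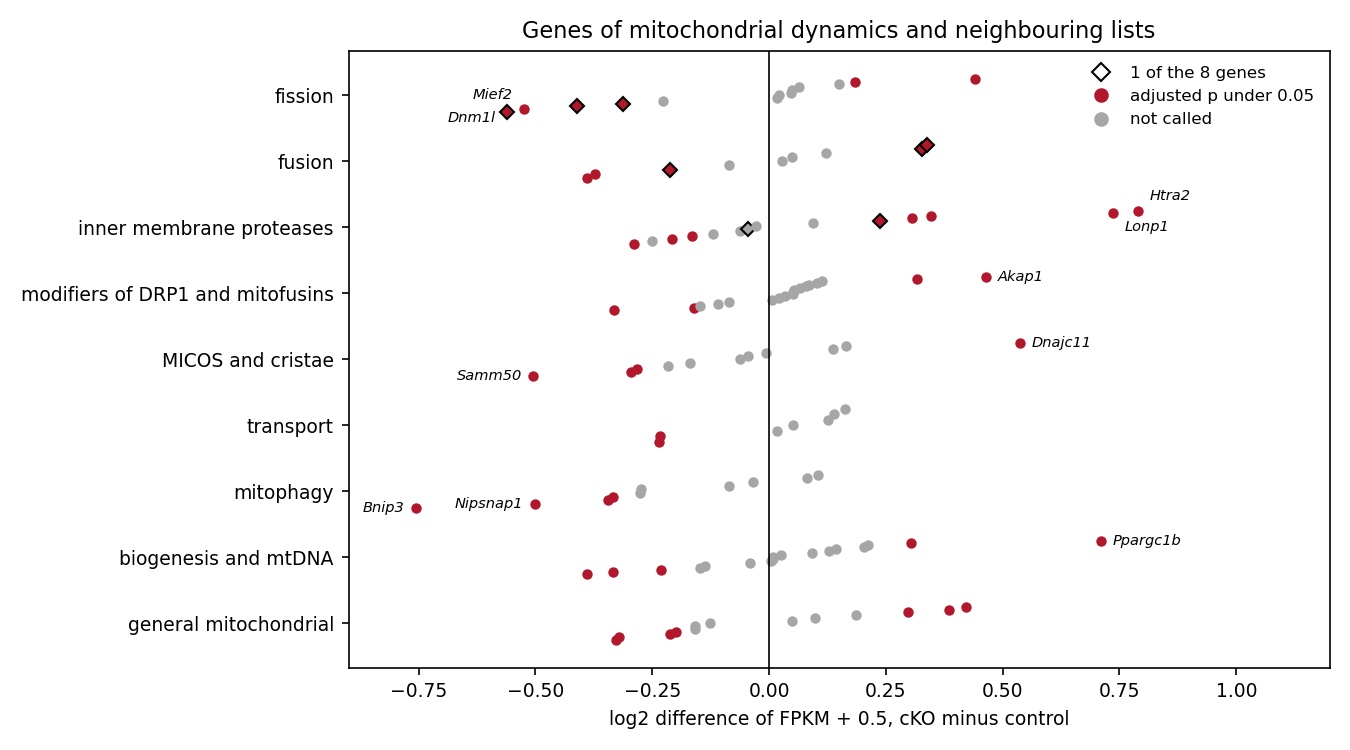
Log2 difference (horizontal axis, cKO minus control on log2(FPKM + 0.5)) of each tested gene in 9 lists of mitochondrial dynamics and content, called genes in red, others in grey, and the 8 genes as outlined diamonds. Called genes lie on either side of 0 in most lists, and Htra2 (0.79) and Bnip3 (-0.76) lie farthest out.

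The genes whose values followed Dnm1l most closely over the 8 libraries were Prune2, Aldoc and Ccdc63 (Pearson's r of log2(FPKM + 0.5) 0.999, 0.998 and 0.998). The points share their libraries and the difference between the groups, so these values are a description. Prune2 averaged 1.03 ± 0.0298 FPKM in cKO and 2.26 ± 0.0389 FPKM in control hearts (SD, n = 4 each), with a log2 difference of -0.85. Ccdc63 had 0.802 to 0.850 FPKM in cKO and 2.67 to 2.85 FPKM in control libraries. Its mean thus reached the filter of 1 FPKM only through the control libraries.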

How the data were processed

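RNA from whole hearts was made into libraries with a stranded mRNA kit. TopHat2 with Bowtie2 placed the reads on mm10, and the authors deposited FPKM per gene entry, a normalized value and not a count. Their methods name Cuffdiff2 for the comparison. Tool versions, gene annotation, read depth and whether strand was used in counting are not given in the sources used here. GENCODE annotates an antisense locus over Dnm1l and other overlapping loci over Mff and Mfn2, which were not analysed here. Text codes for low data or a failed estimate fill 1.32% of the cells, and 23521 of 23846 entries have a number in all 8 libraries. A column of p-values from the authors' own comparison was not used. No mitochondrially encoded gene was analysed.

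The test was limma 3.58.1 in R 4.3.3 on log2(FPKM + 0.5), for entries averaging 1 FPKM or more (2 group means, empirical Bayes variances with a trend). The step was also run on simulated data with independent noise in each entry, which leaves out deviations shared between genes of a library. Starts are 1-based. Figures were drawn with matplotlib 3.10.9. The 8 genes, the lists and the settings were chosen with earlier results of these data known. The text names the 8 genes, from each list the called genes lowest in adjusted p (at most 3), Ogt, and the 3 genes most like the gene of the 8 with the smallest adjusted p. Genes outside this rule are marked in the text as chosen after their values were seen. The alternatives were other pseudocounts (0.1 and 1), filters (none, and a mean of 5 FPKM), scalings, array weights and no variance trend, the prefix or the replicate number as a block, and leaving out each library.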

Additional observations from a re-analysis of the deposited data

Results flagged for a closer look

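Within a group of 4 libraries, 3 of the 16 sets of values of the 8 genes had 1 library far from the others (a gap beyond the 95% critical value of Dixon's test, which chance gives in about 1 of 20 groups). Fis1 was 108.6 FPKM in cKO library 3, Mff was 64.0 FPKM in control library 3, and Oma1 was 9.66 FPKM in control library 3. Without control library 3 the log2 difference was -0.23 for Mff and 0.26 for Oma1, and both remained called.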

How the results depend on the processing

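Under 22 other settings, including those added after seeing the data, Dnm1l (-0.57 to -0.55 on the log2 scale), Fis1 (-0.48 to -0.35), Opa1 (0.31 to 0.36) and Ogt were called in the same direction each time, and Mff, Mfn1, Mfn2 and Oma1 in all but 1. With the 5 OGF373 libraries only, 3 of the 8 genes were called (1 higher and 2 lower). There Mff (-0.36, limma adjusted p = 0.0867), Mfn1 (-0.21, 0.118), Mfn2 (0.37, 0.0513) and Oma1 (0.20, 0.112) were not called, and 1465 of all entries and 18 other listed genes were, on fewer samples. With array weights 6582 entries and 62 listed genes were called, and Yme1l1 was at 0.025 (adjusted p = 0.591). The cause was not tested. Leaving out 1 library at a time, Yme1l1 ranged from -0.070 to 0.0030, positive without control library 3, and calls ranged from 2650 to 4951 entries. Replicate numbers are shared by the titles. Deviations of same-numbered libraries correlated at -0.01 to 0.16, and those of differently numbered libraries at -0.12 to 0.10. These weak values do not settle whether the numbers pair the libraries. With the replicate block 7 of the 8 genes and 3443 entries were called. Of 567 values of 26 named genes of the lists under these settings, 32 lost the call and 0 changed direction (Fundc1 and March5 were not among the 26). Of 396 counts of called genes per list, 85 changed by over 1.5 times, or to or from 0. Mitophagy genes were called higher under 3 of the 22 settings and transport genes under 12, against 0 in the report, and general mitochondrial genes were 7 lower and 5 higher under quantile normalization, against 4 and 3. Read counts were not used, so the precision rests on the spread of 4 libraries a group.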
